A study of Rattus norvegicus with 6 samples.

Results

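Corticosteroids reach their receptors through a small set of genes, and 10 of them were followed here in the amygdala of rats given acute ethanol: the glucocorticoid receptor Nr3c1, the mineralocorticoid receptor Nr3c2, the immunophilins Fkbp4 and Fkbp5, the cochaperones Ptges3 and Stip1, the chaperones Hsp90aa1 and Hsp90ab1, and the steroid enzymes Hsd11b1 and Hsd11b2. They were chosen by symbol, with earlier results of these data known. They are 10 of the 38445 genes in the count files, and all 10 passed the filter on low counts. Adult male Sprague Dawley/WT rats received an intraperitoneal injection of saline (control) or of ethanol at 1 g/kg, and the amygdala was collected after 1 h. Each group had 6 rats, and RNA from 2 rats was pooled per library, which gave 3 libraries per group, so the spread between libraries is a spread between pools. The dissected tissue held the central, medial and basolateral nuclei together, so a lower share of cells of a type and less RNA per cell cannot be told apart.

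Without hormone, the glucocorticoid receptor is held in the cytoplasm by the HSP90 chaperone. HSP70 first hands it over through the adaptor HOP, encoded by Stip1, and the complex then matures with p23, encoded by Ptges3, and with FKBP51 (Fkbp5) or FKBP52 (Fkbp4). FKBP51 lowers the receptor's affinity for hormone and FKBP52 favors its transport to the nucleus, and Fkbp5 is itself a well-known glucocorticoid target gene. 11β-hydroxysteroid dehydrogenase type 1 (Hsd11b1) regenerates active corticosterone inside cells, whereas type 2 (Hsd11b2) inactivates it and thereby protects the mineralocorticoid receptor in the kidney. In the brain both receptors are common in neurons of limbic regions, and the mineralocorticoid receptor binds corticosterone with the higher affinity.

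Promoter sequences from RefSeq (build GRCr8, 250 bases before to 50 bases after the annotated start) were matched for 6 of the 10 genes, namely Nr3c1, Fkbp4, Fkbp5, Ptges3, Stip1 and Hsp90ab1. Those of the immunophilins are shown because Fkbp5 and Fkbp4 were the genes whose groups did not overlap in CPM (defined below). Those of Stip1 and Hsp90ab1 are shown because these chaperone genes were the most abundant members. Capitals mark matches to a pair of inverted heat shock units (GAANNTTC or TTCNNGAA) or to the cyclic AMP response element (TGACGTCA).
Fkbp5: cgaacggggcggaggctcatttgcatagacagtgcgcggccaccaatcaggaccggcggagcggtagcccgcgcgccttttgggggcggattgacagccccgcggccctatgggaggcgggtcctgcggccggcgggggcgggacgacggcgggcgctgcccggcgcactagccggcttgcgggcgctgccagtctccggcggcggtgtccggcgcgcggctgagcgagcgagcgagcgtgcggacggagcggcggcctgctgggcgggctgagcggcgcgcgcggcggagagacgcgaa
Fkbp4: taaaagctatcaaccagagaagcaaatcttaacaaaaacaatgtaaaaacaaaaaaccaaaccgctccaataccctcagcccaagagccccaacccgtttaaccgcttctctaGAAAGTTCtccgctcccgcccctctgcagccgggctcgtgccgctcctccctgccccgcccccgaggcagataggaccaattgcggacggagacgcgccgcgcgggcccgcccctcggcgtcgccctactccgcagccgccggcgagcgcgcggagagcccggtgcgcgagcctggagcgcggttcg
Stip1: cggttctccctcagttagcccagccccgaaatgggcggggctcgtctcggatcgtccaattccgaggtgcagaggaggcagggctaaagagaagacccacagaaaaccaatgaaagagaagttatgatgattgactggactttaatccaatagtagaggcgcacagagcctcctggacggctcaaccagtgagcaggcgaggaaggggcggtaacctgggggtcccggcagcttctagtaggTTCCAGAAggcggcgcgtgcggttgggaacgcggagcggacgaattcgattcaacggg
Hsp90ab1: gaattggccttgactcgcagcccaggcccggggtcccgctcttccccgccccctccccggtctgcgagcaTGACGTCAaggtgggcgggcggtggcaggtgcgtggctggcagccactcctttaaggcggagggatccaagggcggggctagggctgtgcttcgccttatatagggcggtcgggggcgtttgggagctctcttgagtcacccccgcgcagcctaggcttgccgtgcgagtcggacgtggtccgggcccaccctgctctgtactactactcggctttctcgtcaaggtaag
The Fkbp5 sequence lies at chr20:6543506-6543805 on the minus strand, that of Fkbp4 at chr4:163397869-163398168 (minus), that of Stip1 at chr1:213657605-213657904 (minus) and that of Hsp90ab1 at chr9:22930173-22930472 (plus). Fkbp4 held GAAAGTTC at position -137 from the start and Stip1 held TTCCAGAA at position -8. The heat shock motif GAANNTTC is present in 8.59% and TTCNNGAA in 8.77% of all 33469 promoters of this length. Hsp90ab1 held TGACGTCA at position -180, a motif present in 1.83% of all promoters. The glucocorticoid response element searched, AGAACA and TGTTCT with 3 bases between them, was in none of the 7 promoter entries of these genes and in 0.0149% of all promoters. All motifs were searched on both strands, and GAANNTTC, TTCNNGAA, TGACGTCA and the glucocorticoid element each read the same on both. The Fkbp5 window was 77.0% G and C, against a median of 51.7% over all promoters. All 7 entries lay above that median, from 58.0% in Stip1 to 79.0% in 1 of those of Nr3c1. These matches describe the sequence only.

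The libraries held between 62576504 and 70755739 assigned reads, and 3 counts corresponded to 0.0424 to 0.0479 CPM by library size alone (CPM are a gene's reads scaled to library size, and all other CPM values also use TMM factors), a limit that covers counting error only. Neuron markers (Gad1, Gad2, Slc32a1, Snap25 and Rbfox3) summed to between 2356 and 2890 CPM. Markers of choroid plexus epithelium, all 8 of which were detected, summed to between 516 and 1119 CPM in the control libraries and to 11.9, 12.9 and 478 CPM in ethanol replicates 1, 2 and 3. Ependymal and motile cilia markers, 5 of 6 matched, summed to between 31.2 and 44.0 CPM in controls and to between 23.7 and 28.0 CPM after ethanol. The summed markers of oligodendrocytes (3278 to 9222 CPM), astrocytes (3714 to 5034), microglia (194 to 234), endothelium (152 to 171), blood (86.8 to 168) and hypothalamus (9.47 to 315) overlapped between the groups, as did those of leptomeninges and mural cells (132 to 315), of which Col1a2 was at 0 counts in every library.

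The study's threshold, an adjusted p below 0.2, was reached by 0 of the 10 genes and by 0 of all 18141 tested (0.0%) in edgeR's quasi-likelihood test. The study's own analysis of these libraries did report changed genes at that threshold. With edgeR's likelihood ratio test and with DESeq2, 77 and 75 genes reached it here. At an unadjusted p below 0.05, 1 of the 10 genes, Fkbp5, was higher after ethanol, against 1.57% of all genes tested. None of the 10 was lower at that p, against 2.58% of all genes. Because the 10 were chosen with earlier results of these data known, these counts are not independent evidence. In Fkbp5 the CPM of all ethanol libraries lay above those of all control libraries, as in 3.65% of all genes. In Fkbp4 the CPM of all ethanol libraries lay below those of all control libraries, as in 5.19%. The median log2 fold change was 0.00 over the 10 genes (-0.0027) and 0.01 over all genes tested (0.0064). Apart from Fkbp5 and Hsp90aa1, every fold change of the 10 lay between -0.05 and 0.04 on the log2 scale.

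**Figure D1:**
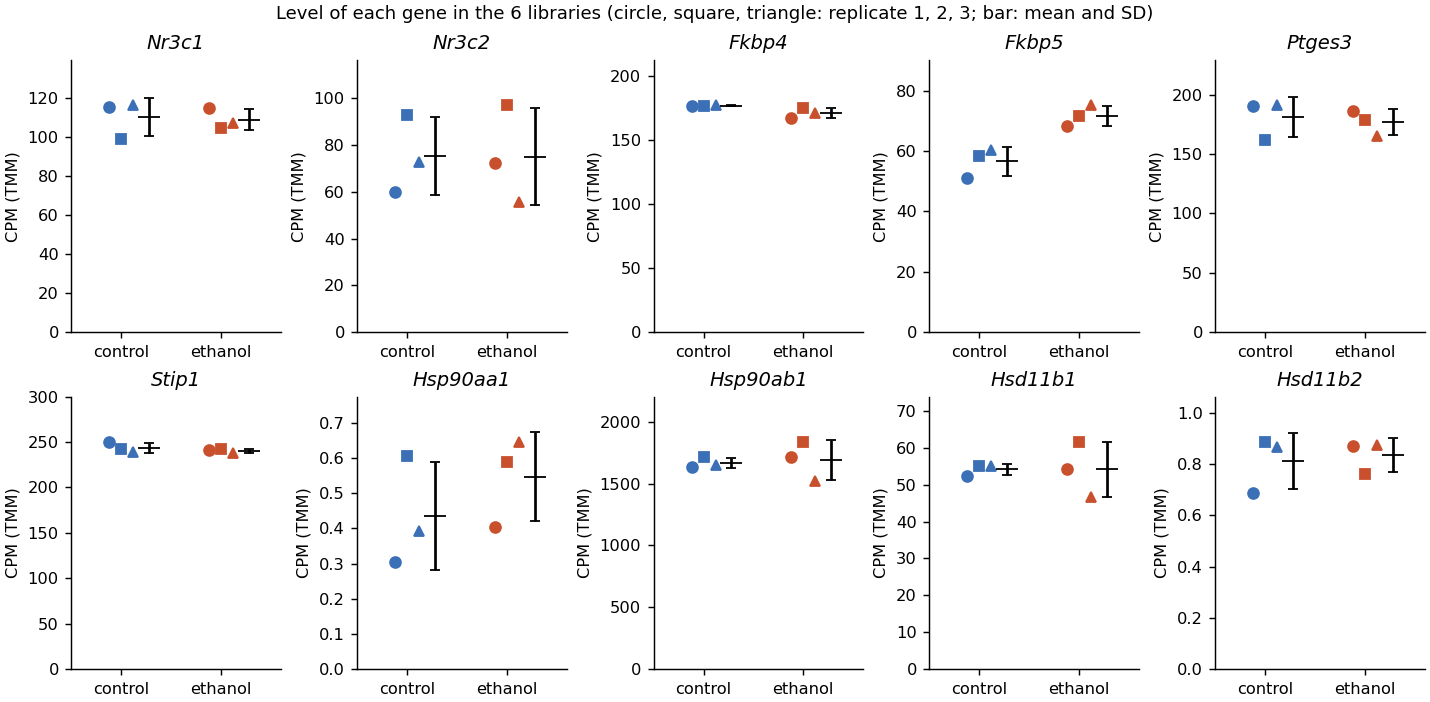
Level of each of the 10 genes in CPM scaled by TMM (vertical axes, each from 0) in the control and ethanol libraries, with circle, square and triangle for replicates 1, 2 and 3 and a bar for the mean and SD of 3 libraries. The groups separate clearly in Fkbp5, by a narrow gap in Fkbp4, and overlap in the other genes.

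The receptors did not separate the groups. Nr3c1 (NCBI gene 24413, Rnor_6.0 chromosome 18 from 31728373 to 32704022, 14 exon blocks) encodes the glucocorticoid receptor. Its level was 115, 99.0 and 116 CPM in control replicates 1, 2 and 3, against 115, 104 and 107 CPM in ethanol replicates 1, 2 and 3. The lowest value was in a control library and the ethanol values fell within the control range. The control mean was 110 ± 9.65 CPM and the ethanol mean 109 ± 5.38 CPM (SD, n = 3 libraries each). The log2 fold change was -0.02 (standard error 0.08, 95% interval -0.20 to 0.16, adjusted p = 1.0 from edgeR), and a 2-sided exact permutation test over the 20 label assignments gave p = 0.8.

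Nr3c2 (NCBI gene 25672, chromosome 19 from 34408275 to 34761003, 11 exon blocks), the mineralocorticoid receptor, varied more between libraries than any other member above 1 CPM. Its level was 60.0, 92.9 and 72.5 CPM in the controls, and 72.5, 96.8 and 55.6 CPM after ethanol, a 1.74-fold range over the 6. Replicate 2 was the highest in both groups, although libraries of the same number come from different rats. The means were 75.2 ± 16.6 CPM (SD, n = 3) and 74.9 ± 20.7 CPM (SD, n = 3), and the groups overlapped. The log2 fold change was 0.00 with a wide 95% interval, from -0.51 to 0.50 (adjusted p = 1.0 from edgeR). Leaving out control replicate 2 turned it to 0.18 and leaving out ethanol replicate 2 to -0.23.

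Nr3c2 was set beside the summed markers of neuron types. The 4 markers of cortical-type glutamatergic neurons (Slc17a7, Neurod6, Tbr1 and Neurod2) summed to 476, 875 and 633 CPM in the control libraries and to 765, 1003 and 479 CPM in the ethanol libraries. The libraries lowest in these markers, control replicate 1 and ethanol replicate 3, were also the lowest in Nr3c2, and both replicates 2 were the highest in both measures. Of the 4 markers, 1 had an unadjusted p below 0.05 between the groups in edgeR's test, on the higher side after ethanol. Markers of striatal-type GABA neurons, 7 in number, ran largely the other way, with 451, 285 and 347 CPM in the controls and 457, 328 and 491 CPM after ethanol. The sum of the 5 neuron markers Gad1, Gad2, Slc32a1, Snap25 and Rbfox3 followed Nr3c2 in 1 group only. In ethanol replicates 1, 2 and 3 it was 2766, 2890 and 2356 CPM, the same order as Nr3c2. In control replicates 1, 2 and 3 it was 2713, 2546 and 2361 CPM, another order. Oligodendrocyte markers were lowest in control replicate 2 and highest in ethanol replicate 3. The part of these marker differences in the Nr3c2 values was not tested. Of the Nr3c2 exons, 155 bases overlap another gene on the opposite strand, and the counting used strand. The count ratio of Nr3c2 to Nr3c1, which does not depend on the scaling between libraries, was 0.520, 0.939 and 0.625 in the controls and 0.631, 0.927 and 0.519 after ethanol, with overlapping groups.

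The immunophilins were the members whose groups did not overlap in CPM, in opposite directions and by unequal amounts. Over all genes tested, 3.65% did not overlap on the higher side and 5.19% on the lower side. Fkbp5 (NCBI gene 361810, chromosome 20 from 7976704 to 8097290, 14 exon blocks) was at 51.2, 58.5 and 60.3 CPM in the controls, and at 68.4, 71.5 and 75.1 CPM after ethanol. Every ethanol library was above every control library, by a gap narrower than the range of the control libraries. The log2 fold change was 0.34 (1.26-fold, standard error 0.08, 95% interval 0.16 to 0.51), with edgeR's unadjusted p = 0.00227 and adjusted p = 0.84. The 2-sided exact permutation test gave p = 0.1, the smallest that 3 libraries against 3 allow. The adjusted p was below 0.2 with edgeR's likelihood ratio test (0.108), which called 0.424% of all genes, and with DESeq2 (0.122), which called 0.422%. Over the 6 fits that each omitted 1 library, the fold change of Fkbp5 stayed on the log2 scale between 0.26 and 0.39. Without ethanol replicate 3, the only ethanol library with choroid plexus markers near the control range, it was 0.30. The ethanol libraries then left were at 11.9 and 12.9 CPM in those markers, against 516 to 1119 CPM in the controls. That fit therefore cannot set the marker difference apart from ethanol, and the part of the markers in the Fkbp5 values was not tested.

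Fkbp4 (NCBI gene 260321, chromosome 4 from 161748993 to 161757447, 10 exon blocks) was at 176.5, 176.5 and 176.7 CPM in the controls, and at 167, 175 and 170.4 CPM after ethanol. The control libraries were nearly level in CPM, and every ethanol library lay slightly below them. Divided by exon length and rescaled within each library (TPM), the groups of Fkbp4 overlapped. Ethanol replicate 2 was then at 159, above control replicate 1 at 158. The log2 fold change was -0.05 (standard error 0.05, 95% interval -0.17 to 0.08, adjusted p = 1.0 from edgeR), with p = 0.1 in the exact permutation test. Scaled by library size alone, without TMM, the fold change of Fkbp4 was -0.08. The count ratio of Fkbp5 to Fkbp4 within a library was 0.290, 0.331 and 0.341 in the controls and 0.410, 0.409 and 0.441 after ethanol. Every ethanol library thus had more Fkbp5 reads per Fkbp4 read than every control library, with means of 0.321 ± 0.0271 and 0.42 ± 0.0179 (SD, n = 3 each). Per base of exon the ratio was between 0.158 and 0.186 in the controls and between 0.223 and 0.240 after ethanol, so Fkbp4 stayed the more abundant transcript in every library.

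**Figure D2:**
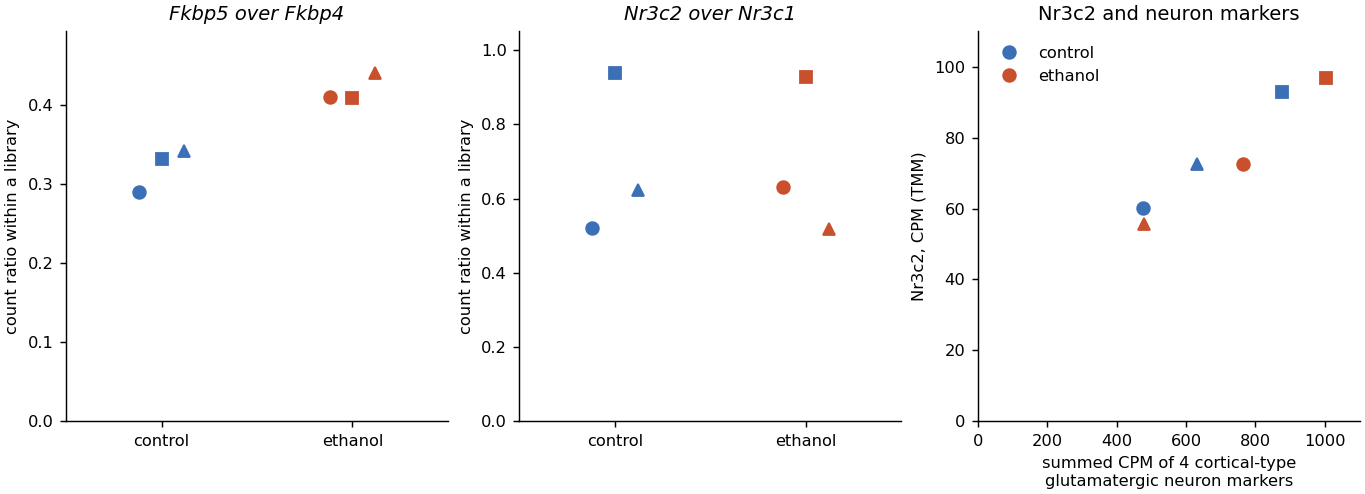
Count ratios within each library for Fkbp5 over Fkbp4 (left) and Nr3c2 over Nr3c1 (middle), and Nr3c2 in CPM against the summed CPM of 4 cortical-type glutamatergic neuron markers (right), with circle, square and triangle for replicates 1, 2 and 3. The Fkbp5 ratio lies above 0.4 in the ethanol libraries and below 0.35 in the controls, the Nr3c2 ratio overlaps, and Nr3c2 is highest in the libraries with the highest marker sums.

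The groups also overlapped in the cochaperones. Stip1 (NCBI gene 192277, chromosome 1 from 222274133 to 222293139, 14 exon blocks) was at 250.1, 242 and 239 CPM in the controls, and at 241, 243 and 238 CPM after ethanol, a 1.05-fold range over all 6. Ptges3 (NCBI gene 362809, chromosome 7 from 2479267 to 2497024, 8 exon blocks) was at 191, 162 and 191 CPM in the controls and at 186, 179 and 165 CPM after ethanol. The Stip1 libraries lay close together, and the lowest Ptges3 value was in control replicate 2. The log2 fold changes were -0.02 for Stip1 (95% interval -0.15 to 0.11) and -0.04 for Ptges3 (95% interval -0.23 to 0.16), with adjusted p = 1.0 for both from edgeR.

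Hsp90ab1 (NCBI gene 301252, chromosome 9 from 17817791 to 17823163, 11 exon blocks), the constitutive HSP90 gene, was by far the most abundant member. Its level was 1636, 1717 and 1650 CPM in the controls, and 1716, 1837 and 1520 CPM after ethanol. The ethanol libraries held both the highest and the lowest value, so the groups overlapped. The means were 1668 ± 43.2 CPM (SD, n = 3) and 1691 ± 160 CPM (SD, n = 3), with a log2 fold change of 0.02 (95% interval -0.21 to 0.25, adjusted p = 1.0 from edgeR). With library size alone in place of TMM its sign turned, to -0.01.

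Hsp90aa1 (NCBI gene 299331, chromosome 6 from 135107262 to 135112793, minus strand, 11 exon blocks), the heat-inducible HSP90 gene that neurons are known to express strongly, received almost no reads. Its counts were 20, 43 and 25 in the controls, and 26, 38 and 45 after ethanol, at most 0.000425 of the Hsp90ab1 count of the same library. The CPM were 0.306, 0.605 and 0.394 in the controls and 0.405, 0.591 and 0.646 after ethanol, with overlap. The log2 fold change was 0.33 with a 95% interval from -0.39 to 1.05 (adjusted p = 1.0 from edgeR).

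The counting annotation holds another gene model on the same minus strand of chromosome 6, gene 103692716 from 135044833 to 135050417. Its lower coordinate is 62429 bases below that of Hsp90aa1, and it carries no symbol in the gene table used here. Both models have 11 exon blocks and 10 introns. All 9 internal exons had the same length in both, from 134 to 367 bases, and all 10 introns did too. They differed only in the outer exons, with 58 against 106 bases at the transcript start and 635 against 640 bases at its end. The other model received 2 counts in control replicate 1 and 0 in the other libraries. Among all 16591 genes with 5 or more exon blocks, 3.91% share every internal exon length with another gene, and Hsp90aa1 was 1 of the 10 members to do so. The authors' counting left out reads that align to several places, so reads that fit both models would be in neither row. The sequence of the interval was not analysed here and the number of reads left out is not known, so their part in the low count was not tested. Rows named as Hsp90aa1 pseudogenes, 15 in number, together held 244 to 295 counts per library, more than Hsp90aa1 itself. The 20 rows named as Hsp90ab1 pseudogenes held 48 to 69 counts, at most 0.0633% of Hsp90ab1. The counts of Hsp90aa1 are for these reasons not read as the level of its transcript.

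**Figure D3:**
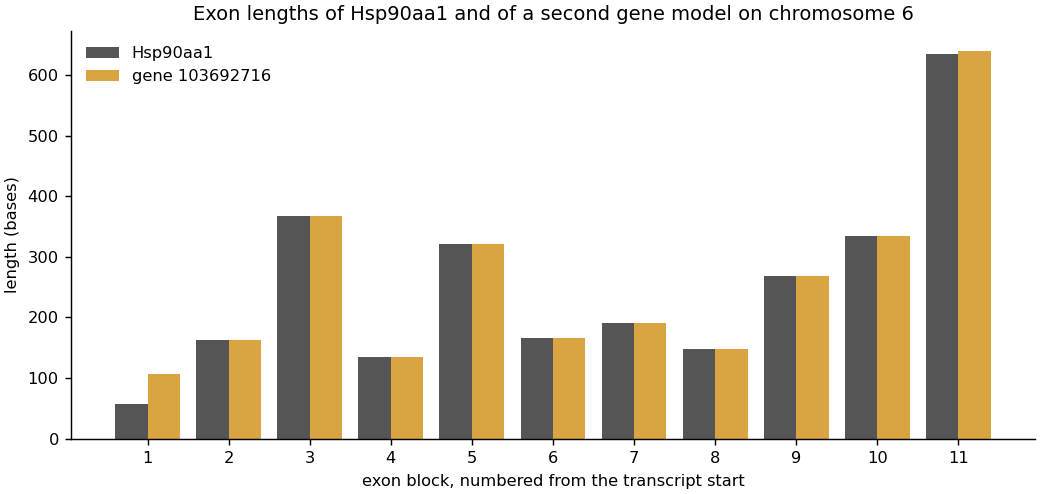
Lengths in bases (vertical axis, from 0) of the 11 exon blocks of Hsp90aa1 and of gene 103692716, numbered from the transcript start along the horizontal axis. The bars are equal from block 2 to block 10 and differ only at blocks 1 and 11.

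The 2 steroid enzymes differed widely in level, and neither separated the groups. Hsd11b1 (NCBI gene 25116, chromosome 13 from 111946626 to 111996536, 8 exon blocks) was at 52.4, 55.0 and 55.1 CPM in the controls, and at 54.2, 61.6 and 46.7 CPM after ethanol. The ethanol libraries spanned the whole range of the controls, and the log2 fold change was -0.00087 (95% interval -0.23 to 0.23, adjusted p = 1.0 from edgeR). Hsd11b2 (NCBI gene 25117, chromosome 19 from 37476083 to 37481326, 6 exon blocks) had 45, 63 and 55 counts in the controls, and 56, 49 and 61 counts after ethanol. These are 0.688, 0.887 and 0.867 CPM in the controls and 0.872, 0.761 and 0.876 CPM after ethanol, with a log2 fold change of 0.04 (95% interval -0.39 to 0.47, adjusted p = 1.0 from edgeR). The low counts leave the interval of Hsd11b2 wide, and a difference within it was not detectable at this depth. Each library held between 0.0124 and 0.0188 Hsd11b2 reads per Hsd11b1 read, and the groups overlapped.

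**Figure D4:**
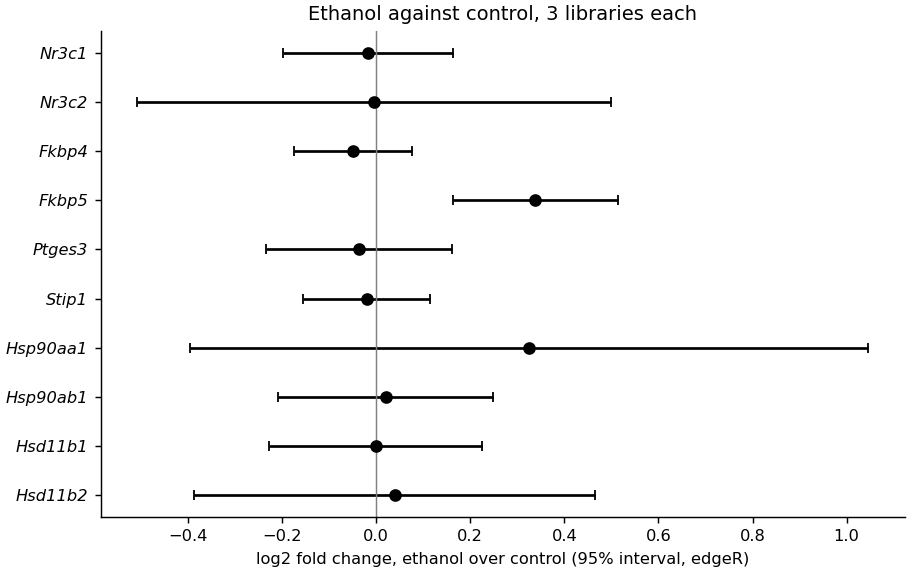
Log2 fold change of each gene, ethanol over control (horizontal axis), with its 95% interval from edgeR's quasi-likelihood fit of 3 libraries per group. The interval of Fkbp5 runs from 0.16 to 0.51 and those of the other genes include 0, with the widest for Hsp90aa1, Nr3c2 and Hsd11b2.

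Levels were set in order after division by exon length, as TPM from counts. Hsp90ab1 stood first at a median of 1891 TPM over the 6 libraries, above 99.8% of the genes tested. Stip1 (302), Ptges3 (276), Fkbp4 (159) and Hsd11b1 (82.3) followed, each above the next in 6 of 6 libraries and with ranges that did not meet. Nr3c1 (36.9), Nr3c2 (33.1) and Fkbp5 (32.4) came next with overlapping ranges: Nr3c1 exceeded Nr3c2 in 4 of 6 libraries and Nr3c2 exceeded Fkbp5 in 4 of 6. Hsd11b2 was at 0.763 TPM and Hsp90aa1, subject to the limit above, at 0.466 TPM, and their ranges met at the edge. Hsp90ab1, Stip1, Ptges3 and Fkbp4 thus exceeded both receptors in all 6 libraries, whereas Fkbp5 was at the level of the receptors.

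**Figure D5:**
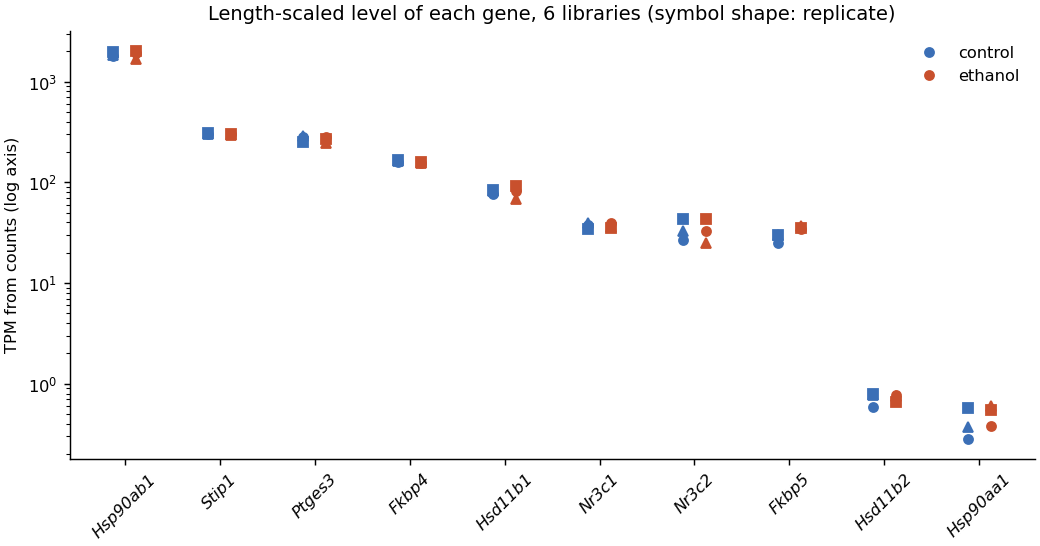
Length-scaled level of each gene in TPM from counts (log axis) in the 6 libraries, ordered by mean, with shapes for replicates. Hsp90ab1 lies between 1674 and 2035 TPM, the receptors and Fkbp5 between 24.9 and 43.5 TPM, and Hsd11b2 and Hsp90aa1 below 1 TPM.

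Other genes of the pathway were taken from lists written for this comparison. Of 22 further partners of the receptor complex, among them the HSP70 gene Hspa8, the cyclophilin Ppid, the phosphatase Ppp5c and the HSP90 regulators Ahsa1 and Cdc37, 0 had an unadjusted p below 0.05 in edgeR's quasi-likelihood test. Their log2 fold changes lay between -0.13 (Chordc1) and 0.11 (Tomm34), with a median of 0.02. The most abundant, Hspa8, was at 796 ± 30.6 CPM in controls and 788 ± 49.0 CPM after ethanol (SD, n = 3 each). Of 12 genes of the heat shock response that were tested, 0 had an unadjusted p below 0.05. Their log2 fold changes spread more widely, from -0.17 (Serpinh1) to 0.47 (Cryab), with a median of -0.04. With single libraries left out, the partner list held 1 lower gene at that p without control replicate 2 and 1 higher gene without ethanol replicate 3. The heat shock list held 2 higher genes without ethanol replicate 1 and 1 lower gene without ethanol replicate 3.

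Of 13 receptor coregulators, such as the coactivators Ncoa1 and Ncoa2 and the corepressor Ncor1, 0 had an unadjusted p below 0.05, with log2 fold changes between -0.09 and 0.09, and 1 was lower at that p without control replicate 1. Of 8 tested genes of steroid supply and clearance, 1 was higher at that p, against 1.57% of all genes tested. This was Cyp11b2, the aldosterone synthase. It had 66, 42 and 44 counts in controls and 124, 54 and 106 after ethanol, with overlapping groups. No gene of that list passed without control replicate 3, ethanol replicate 1 or ethanol replicate 3. Of the 7 other receptors of the NR3 family, 2 had an unadjusted p below 0.05, both lower after ethanol, against 2.58% of all genes tested. The estrogen receptor genes Esr1 and Esr2 were at 22.1 ± 1.38 and 1.75 ± 0.344 CPM in controls and at 18.5 ± 1.7 and 1.29 ± 0.0794 CPM after ethanol (SD, n = 3 each). Their log2 fold changes were -0.25 and -0.44, and edgeR's adjusted p was 1.0 for both. The groups did not overlap in either, as on the lower side in 5.19% of all genes tested. Leaving out any control library, ethanol replicate 1 or ethanol replicate 2 left 1 lower gene in this list, as did DESeq2, and leaving out ethanol replicate 3 left 0 lower and 1 higher.

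A further list held 20 corticosteroid-responsive genes. Of these, 14 were higher after ethanol at an unadjusted p below 0.05, against 1.57% of all genes tested, and 0 were lower, against 2.58%. The 20 had a median log2 fold change of 0.40, but 0 had an adjusted p below 0.2 in edgeR's quasi-likelihood test. Among them, Klf9, a transcription factor, was at 61.5, 69.2 and 57.9 CPM in controls and 78.3, 96.8 and 91.1 CPM after ethanol. Tsc22d3, which encodes the anti-inflammatory protein GILZ, was at 80.2, 70.3 and 74.8 CPM in controls and 84.2, 103 and 109 CPM after ethanol. The other 12 were Sgk1, Per1, Errfi1, Cdkn1a, Pdk4, Ddit4, Nfkbia, Dusp1, Hif3a, Plekhf1, Bcl6 and Arrdc2, with log2 fold changes between 0.30 (Bcl6, a transcriptional repressor) and 1.39 (Hif3a, a hypoxia-inducible factor subunit). Zbtb16, Sult1a1, Mt1, Mt2A, Lcn2 and Cebpd did not reach an unadjusted p below 0.05 in edgeR's test. The lowest log2 fold change of the list was -0.14 (Lcn2). Sgk1, a kinase that both corticosteroid receptors are known to induce, was at 66.5 ± 2.75 CPM in controls and 108 ± 29.6 CPM after ethanol (SD, n = 3 each). In ethanol replicates 1, 2 and 3 Sgk1 was at 74.6, 130 and 120 CPM, so replicate 1 lay nearest the controls. In Klf9 and Tsc22d3 every ethanol library exceeded every control library, as in 12 of the 20 and in 3.65% of all genes. The list was written with earlier results of these libraries known and holds genes the study had singled out on them, such as Hif3a, so its count is not independent evidence. Without ethanol replicate 2, 9 of its genes had an unadjusted p below 0.05 in edgeR's test, all higher. Without ethanol replicate 1, 17 did, all higher. The choroid plexus markers given above also differed between the groups, and their part in these values was not tested. The log2 fold change of Fkbp5 was 0.34, and its nearness to the median of a list so chosen is not independent evidence either. Those of Nr3c1 and Nr3c2 were -0.02 and -0.0046. Their 95% intervals ran from -0.20 to 0.16 and from -0.51 to 0.50.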

How the data were processed

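RNA-seq was carried out on 6 amygdala libraries, 3 control and 3 ethanol. The libraries were prepared with a stranded mRNA kit and sequenced as single-end reads of 100 nt on 3 lanes. Per the submitters' processing notes, reads were aligned with STAR 2.7.0f to Rnor_6.0. Per the file headers, the authors counted reads over exons with featureCounts of Subread 1.6.3 at strand setting 2, without the options for reads that align to several places or overlap several genes. The deposited values are raw counts per gene, and their totals differ between libraries. Symbols were matched by NCBI gene identifier to the RefSeq table of GRCr8 for 29322 of 38445 genes. Coordinates of genes are those of the files.

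The analysis used edgeR 4.0.16 under R 4.3.3. A low-count filter (filterByExpr, minimum 10 counts) left 18141 genes, and libraries were scaled by TMM. The groups were compared by the quasi-likelihood F test, and p-values were adjusted by Benjamini-Hochberg across the whole table. The standard error is the absolute log2 fold change divided by the square root of F, and intervals use the test's degrees of freedom. Each library is a pool of 2 rats, so p-values measure the spread between pools. Alternatives used edgeR's likelihood ratio test, DESeq2 1.42.0, limma-voom (limma 3.58.1), other scalings and filters, and libraries left out in turn. TPM were computed from counts and exon lengths. The named genes were all 10 members and, of each further list, the genes with an unadjusted p below 0.05, or else the 2 with the most counts, of which the text gives those it needs. The members and lists were chosen with earlier results of these data known. A gene of the coregulator list and a gene of the cortical-type neuron markers are not reported here and were left out of those lists.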

Additional observations from a re-analysis of the deposited data

How the results depend on the processing

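At an adjusted p below 0.2, 77 genes were called by the likelihood ratio test of edgeR and 75 by DESeq2, where the quasi-likelihood test gave 0 and 753 genes at an unadjusted p below 0.05. Of the 10 members, 1 was called by each of these tests and 1 at the unadjusted p, Fkbp5 each time, with a log2 fold change of 0.34 in both tests. Leaving out each library in turn gave between 0 and 83 genes over the whole table, with 83 without ethanol replicate 3 and 4 without ethanol replicate 1, and 0 members. Limma-voom, the other scalings and the other filters gave 0 genes. With the replicate number as a block, 0 genes and 0 members had an adjusted p below 0.2, and the log2 fold change of Fkbp5 was 0.34 (edgeR's adjusted p = 0.634). With it, 1015 genes had an unadjusted p below 0.05 in edgeR's test. The standard error of Fkbp5 was 0.054 with the block and 0.076 without it. The block added 1 higher gene at an unadjusted p below 0.05 to the heat shock list, which held 0 without the block. Deviations from the group means, over 14241 genes, correlated by 0.0264, 0.388 and 0.211 between the same-numbered replicates 1, 2 and 3. Control 2 and control 3 correlated best with the ethanol library of their number, whereas control 1 correlated best with ethanol 3 (0.305). Whether the numbers pair the libraries was not tested further. Signs turned for fold changes close to 0. With library size alone Hsp90ab1 went to -0.0080, and without a filter on low counts Hsd11b1 went to 0.00075. With each library left out, Nr3c1 ran from -0.089 to 0.022, Nr3c2 from -0.23 to 0.18, Ptges3 from -0.11 to 0.011, Hsp90ab1 from -0.043 to 0.092, Hsd11b1 from -0.10 to 0.10 and Hsd11b2 from -0.075 to 0.11. Fkbp4, Fkbp5, Stip1 and Hsp90aa1 kept their signs in all alternatives that gave a value. The filter of 1 CPM in 3 libraries left out Hsp90aa1 and Hsd11b2. The cause of the differences between tests was not tested.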

Other observations

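Genes with the pattern closest to Nr3c1 and Fkbp5 were sought among the 10422 tested genes of at least 10 CPM, by the root mean square difference of log2 CPM, centred on the control mean, over the 6 libraries. For Nr3c1 they were Cggbp1, Tmx3, Hmgb1, Pnpla8 and Dek, at differences of 0.0143 to 0.0217. For Fkbp5 they were Ppp1r3g, Smim3, Edem1, Slc2a1 and Ifngr1, at differences of 0.0732 to 0.0834. Their log2 fold changes were 0.27, 0.29, 0.25, 0.32 and 0.27, of which the nearest to that of Fkbp5 was Slc2a1, the glucose transporter of the blood-brain barrier. The log2 fold changes of the 5 genes nearest to Nr3c1 lay between -0.03 and -0.0056. Likeness over 6 libraries is a description of these values only.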
